A study of Mus musculus with 10 samples.

Results

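Prolactin (Prl) and 5 genes of the pathway through which prolactin acts on cells, its receptor Prlr, the transcription factors Stat5a and Stat5b, and the inhibitors Cish and Socs2, were followed by single-cell RNA-seq in mouse pituitary. These 6 genes were taken by name from the 15270 gene symbols present in the tables of all 10 libraries. Each gene was read as UMIs (counted mRNA molecules) per 10000 UMIs of a class of cells, and as the share of cells with at least 1 UMI. In the 23432 kept cells Prl gave 1548771 of 27438118 UMIs, and the other genes were sparse, with 3165 UMIs for Prlr, 2424 for Socs2, 855 for Cish, 488 for Stat5a and 444 for Stat5b.

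All mice were of the CD1 strain. The 10X Genomics platform gave 1 library each from 8-week wild-type (WT) females and males. Drop-seq, in which barcoded beads capture the mRNA of single cells in droplets, gave 2 libraries each from 8-week WT females and males, called 1 and 2 here in the order of the numbers in their labels. It also gave 1 library from 8-week mt/hGRF females, which carry human growth hormone-releasing hormone under the metallothionein promoter and so model an excess of that hormone made outside its normal cells, 1 from a 13-week virgin WT female and 2 from 13-week lactating WT females. Several libraries pooled mice, so a library is not an animal, and the labels do not say whether the libraries of a group were prepared separately.

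Prolactin is the milk-supporting hormone of the pituitary lactotropes and is closely related to growth hormone, the product of the somatotropes. Binding to its receptor activates the kinase JAK2, which phosphorylates STAT5A and STAT5B. These enter the nucleus and switch on genes including those for CISH and SOCS2, which in turn dampen signalling through cytokine receptors. Growth hormone acts through its own receptor on the same kinase and STAT proteins, so the inhibitors are not specific to prolactin. Prolactin also limits its own secretion, mainly through hypothalamic neurons whose dopamine acts on the lactotrope receptor DRD2.

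The sequences around the starts of the hormone gene and of one inhibitor gene are shown because they carry letters that pituitary and STAT5 factors are known to read. The window holds 250 bases before and 50 bases after the annotated start, as RefSeq gives it on GRCm38.p6. Capitals mark ATGNATA, a core related to the sites of the pituitary factor POU1F1, in the Prl window (chr13:27057320-27057619, plus strand), and TTCNNNGAA, the palindrome of STAT5 sites, in the Cish window (chr9:107296409-107296708, plus strand). Both strands were searched.
Prl: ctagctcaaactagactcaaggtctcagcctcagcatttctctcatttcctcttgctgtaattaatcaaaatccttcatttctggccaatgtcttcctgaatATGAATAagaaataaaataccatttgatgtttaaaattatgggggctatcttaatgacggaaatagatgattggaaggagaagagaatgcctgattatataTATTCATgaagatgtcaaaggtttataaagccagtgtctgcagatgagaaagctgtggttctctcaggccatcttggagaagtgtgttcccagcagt
Cish: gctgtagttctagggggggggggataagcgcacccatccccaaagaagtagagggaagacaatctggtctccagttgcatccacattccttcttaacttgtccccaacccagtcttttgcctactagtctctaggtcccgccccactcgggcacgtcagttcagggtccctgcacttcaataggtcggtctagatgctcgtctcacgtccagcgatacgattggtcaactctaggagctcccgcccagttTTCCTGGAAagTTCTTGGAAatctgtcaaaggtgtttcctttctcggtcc

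The Prl window held ATGNATA at 2 places before the start and no TTCNNNGAA, and the Cish window held TTCNNNGAA at 2 places, which begin at bases 1 and 12 from the start, after it, and no ATGNATA. Of the 32851 promoter windows in the RefSeq table, 8.84% held ATGNATA and 8.3% held TTCNNNGAA. One Prlr window held TTCNNNGAA once, and the Stat5a and Stat5b windows held neither motif. No window was available for Socs2, so it was not searched. In GRCm38 with GENCODE vM21, Prl lies on chr13:27057570-27065205, Prlr on chr15:10177238-10349180, Cish on chr9:107296026-107302784 and Socs2 on chr10:95385362-95417180. Stat5a (chr11:100859351-100885169) and Stat5b (chr11:100780731-100850724), which lies on the other strand, are head to head, with their starts 8627 bases apart. Of the 50-base stretches of their transcripts, 15.8% of those of Stat5a and 11.8% of those of Stat5b occur in another gene, mostly the neighbouring one. For Socs2, 18.4% occur in another gene, with Gm9847 sharing the most. The counts of Stat5a, Stat5b and Socs2 may thus be less certain than those of Prl and Cish, which share none. Where along the transcripts the shared stretches lie was not examined.

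Cells were sorted into classes by marker genes without using any of the 6 genes. The lactotrope, somatotrope and gonadotrope markers were taken partly from those that the study had derived from these same samples. A cell entered a class when at least 2 of the markers of that class were seen and no other class had as many. The lactotrope-marker class (Lac gate, for example Hmcn1, Lrp1b and Edil3) held 21 to 637 cells per library and 2196 in all. The somatotrope-marker class (Som gate, for example Ghrhr and Kcnk2) held 89 to 594 and 2609, and the macrophage-marker class (MacPh gate, which also needed a C1qa UMI, with C1qb, C1qc, Ctss and Tyrobp as the other markers) 44 to 223 and 932. The gates took in 25.3% to 45.8% of kept Drop-seq cells, and with 10X Genomics 72.6% of those of the female and 64.5% of those of the male, whose cells were deeper (medians of 1246 and 1028 UMIs, against 534 to 784.5). Genes left out of the gates were used to check them. Pou1f1, the factor that both lineages share, lay at 4.70 to 9.62 UMIs per 10000 in the Lac gate and 4.76 to 8.17 in the Som gate, against 0 to 1.18 in the MacPh gate. Gh, the growth hormone gene, lay at 1084 to 2298 in the Som gate and 206 to 877 in the Lac gate. The study assigned its somatotrope and lactotrope clusters partly by Gh and Prl, so the Gh levels are not an independent check of the gates. Libraries shared at most 6 cell barcodes.

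Prl was detected in nearly every class of cell, so the level in cells that should not make it was taken as the background from RNA outside the cells. Among the Lac gates, the level was 631 and 745 UMIs per 10000 in the female and male 10X Genomics libraries, 815 and 422 in the Drop-seq WT females 1 and 2, and 559 and 428 in the WT males 1 and 2. It was 1238 in the mt/hGRF library, 1876 in the virgin library and 1328 and 1325 in lactating libraries 1 and 2. The Lac gate thus ranged from 422 to 1876, and by these summed UMIs the 13-week libraries and the transgenic library held the highest 4 values. By the median Lac gate cell the 13-week libraries were again highest (640.3 to 754 UMIs per 10000), but the mt/hGRF library, at 278, lay below WT female 1, at 396.

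In the MacPh gate of the same libraries Prl lay at 59.1 and 6.88 in the female and male 10X Genomics libraries, 91.3 and 2.81 in the WT females, and 26.9 and 3.88 in the WT males. It lay at 61.7 in the mt/hGRF library, 199.5 in the virgin library and 388 and 377 in the lactating libraries. The macrophage-marker cells thus carried the most Prl in the lactating libraries. By summed UMIs their level there was higher than the Som gate level of every library that was not lactating, the virgin one (332) included. The median MacPh gate cell held 155 and 253 in lactating libraries 1 and 2, against 188 for the median Som gate cell of the virgin library. In lactating library 1, the 10% of MacPh gate cells with the most Prl UMIs held 68.4% of those of the gate. All cells with any C1qa UMI gave 8.51 to 505 UMIs per 10000 and the same highest libraries.

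The Lac gate was above the MacPh gate in 10 of 10 libraries, with a mean log2 difference of 4.28 ± 2.01 (SD, n = 10, exact sign-flip permutation p = 0.00195, two-sided, the smallest that 10 libraries allow, 6 genes tested, pseudocount 0.05 per 10000). The smallest difference was 1.77. The Som gate was above the MacPh gate in 10 of 10 libraries by 1.90 ± 1.37 (SD, n = 10, exact permutation p = 0.00195). A cell of the Lac gate had at least 1 Prl UMI in 92.1% to 100% of cases, and a cell of the MacPh gate in 25.0% to 100%, so that the presence of a Prl UMI alone does not mark a lactotrope. With every cell thinned to 300 UMIs, which left out 4 and 5 cells of the 10X Genomics libraries, the shares were 79.3% to 100% and 6.82% to 98.2%, at median depths of 640 to 1278 and 753 to 1730 UMIs before thinning.

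**Figure D1:**
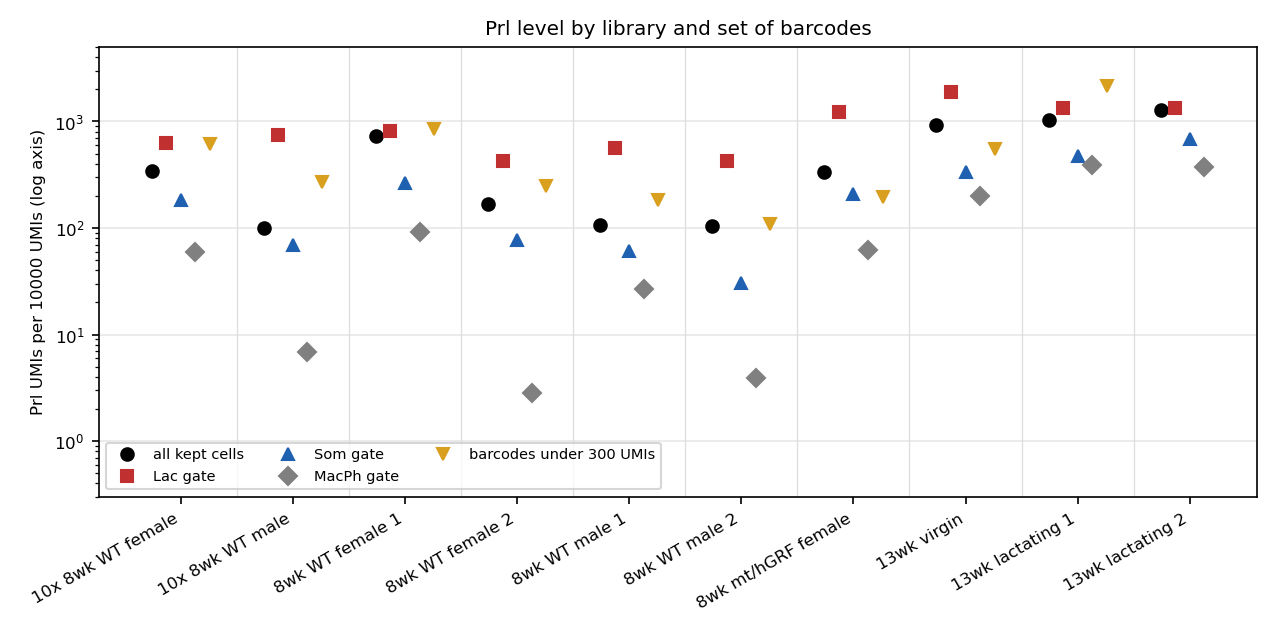
Prl as UMIs per 10000 UMIs (log axis) in each of the 10 libraries, 1 point for each of all kept cells, the Lac, Som and MacPh gates and the barcodes under 300 UMIs. In every library the Lac gate point is above the Som gate point and the Som gate point above the MacPh gate point. Lactating library 2 has no point for barcodes under 300 UMIs because it held only 8 of them.

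Barcodes under 300 UMIs can hold droplets without a cell, cells that lost most of their RNA and small cells, so they are a mixed comparison and not a measure of background alone. Their median depth was 24 to 277 UMIs. In the mt/hGRF and virgin libraries they lay just under the limit (medians of 277 and 266 UMIs) and carried Pou1f1 at 6.17 and 9.01 UMIs per 10000, near the 4.70 and 9.49 of the Lac gate and far above the 0.53 and 0.76 of the MacPh gate. In the other 7 libraries with enough such barcodes Pou1f1 in them lay at 1.45 to 2.89. The 97244 and 97081 barcodes of the 10X Genomics libraries held Prl at 618 and 269.6 UMIs per 10000. In Drop-seq the level ran from 109 in WT male 2 to 2140.4 in lactating library 1, where it was higher than in the Lac gate. Over the 9 libraries with enough such barcodes, the Lac gate was above them in 7 by a mean log2 difference of 1.06 (exact permutation p = 0.0273). The other 2 were lactating library 1 and WT female 1. Without the mt/hGRF and virgin libraries the Lac gate was above in 5 of 7 (0.73, exact permutation p = 0.109), which did not pass.

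Across the classes of cell, the order of Prl by mean level over libraries was Lac gate (937), stromal-marker gate (592), Sox2 stem cell-marker gate (546), melanotrope-marker gate (242), Som gate (238), gonadotrope-marker gate (219), proliferation-marker gate (192) and MacPh gate (122). The classes were not all present in each library, and within libraries the Lac gate was above the stromal gate in 6 of 7, but the stromal gate was above the Sox2 gate in only 2 of 6. By summed UMIs the melanotrope, Som and gonadotrope gates did not separate, each exceeding the next in 6 of 10 and 6 of 9 libraries. The Som gate and the melanotrope-marker gate, whose cells are not of the Pou1f1 lineage, differed by a mean log2 value of -0.01 in summed UMIs (exact permutation p = 0.984). The median Som gate cell was nevertheless above the median melanotrope gate cell in 10 of 10 libraries, at 153 against 91.2 UMIs per 10000 in WT female 1 and only 9.71 against 8.90 in WT male 2, values for which no test was run. The 10% of melanotrope gate cells with the most Prl UMIs held 55.7% to 88.1% of the Prl UMIs of that gate. In lactating library 2, the stromal gate at 2344.4 and the Sox2 gate at 1640.5 were higher than the Lac gate at 1325 in summed UMIs. The median Sox2 gate cell there lay at 416, below the 754 of the Lac gate, and 1 cell of the Sox2 gate held 5197 Prl UMIs.

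A small number of cells held most of the hormone message. The 10% of kept cells with the most Prl UMIs held 55.9% to 82.3% of all Prl UMIs in a library. Cells in which Prl made up at least 10% of UMIs were 4.50% of kept cells in the mt/hGRF library, 22.1% in the virgin and 23.3% and 25.2% in the lactating libraries. They were 27.4% and 2.63% in WT females 1 and 2, 2.03% and 0.904% in WT males 1 and 2, and 7.07% and 1.13% in the female and male 10X Genomics libraries. The share was thus similar in the virgin and the lactating libraries, and WT female 1 stood with them and not with WT female 2. The median UMI count of these Prl-rich cells was above that of all kept cells in 6 of 10 libraries, at 561 against 534 in the virgin library, for example. Leaving out Prl, Gh and Pomc, it was below that of the other kept cells in 9 of 10 libraries, at 328 against 454 in the virgin library, a difference that choosing cells by their share of Prl UMIs itself favours. From 45.0% to 86.8% of them entered no gate. The Lac gate held 7.16% to 53.1% of the Prl UMIs of a library. Of the Prl-rich cells, 6.66% were in the Lac gate in the virgin library, against 5.27% of all kept cells. These shares were 3.73% against 6.24% in WT female 1 and 47.4% against 9.66% in WT male 2. The share of Prl-rich cells was the lower one in WT female 2 and the female 10X Genomics library too, and the higher one elsewhere. The values by gate describe only cells that the markers sorted, and why the rest entered no gate was not tested.

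**Figure D2:**
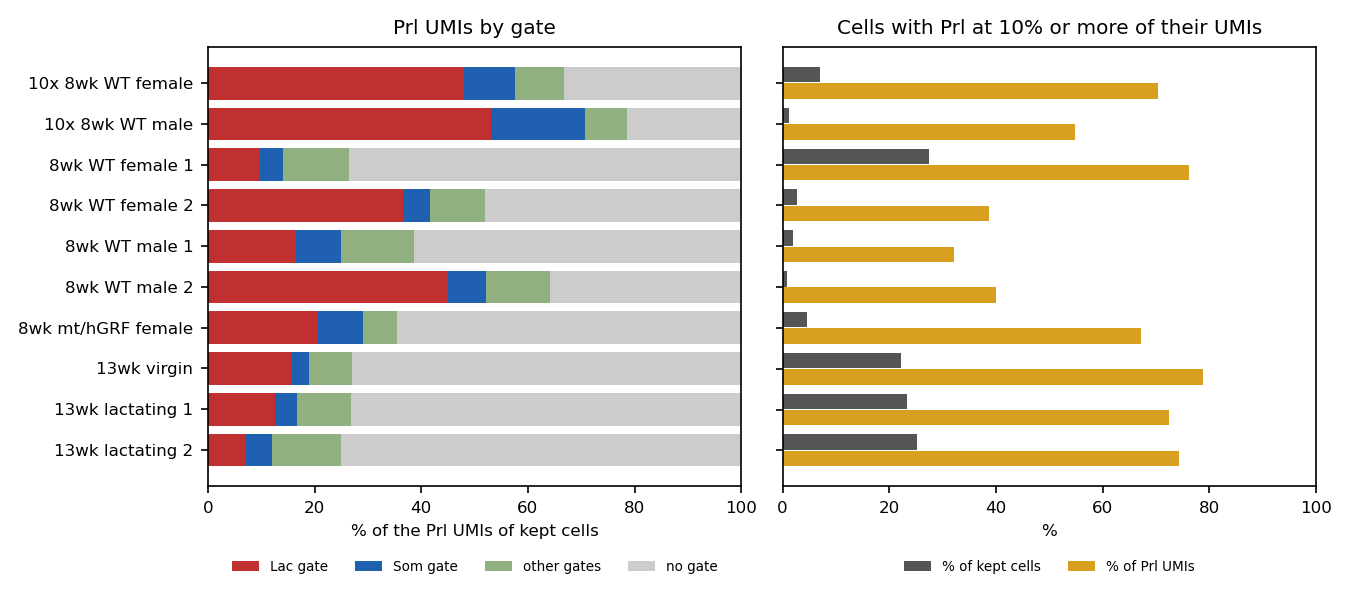
Left, percentage of the Prl UMIs of each of the 10 libraries that fell in the Lac gate, the Som gate, the other gates or no gate, as stacked bars from 0 to 100. Right, cells with Prl at 10% or more of their UMIs as a percentage of kept cells and of Prl UMIs, as paired bars. The Lac gate takes 7.16% to 53.1% of the Prl UMIs and cells in no gate 21.5% to 75.0%, and the Prl-rich cells, at 0.904% to 27.4% of kept cells, hold 32.0% to 78.7%.

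Prlr, the receptor, was detected in endocrine cells of several kinds. In the Lac gate its level was 0.45 and 0.63 UMIs per 10000 in the female and male 10X Genomics libraries, 1.56 and 1.65 in the Drop-seq WT females 1 and 2, and 2.24 and 1.58 in the WT males. It was 1.27 in the mt/hGRF, 0.97 in the virgin and 1.62 and 2.01 in the lactating libraries. The lowest Drop-seq value was the virgin one, and both 10X Genomics values were lower than any of them. Prlr in the Som gate lay at 0.71 and 0.72 in the 10X Genomics libraries, 1.47 and 3.22 in WT females, 1.57 and 2.93 in WT males, 2.60 in the mt/hGRF, 1.75 in the virgin and 2.34 and 2.14 in the lactating libraries. By the mean over all libraries of both platforms the order was Som gate (1.95), gonadotrope gate (1.65), Lac gate (1.40), melanotrope gate (0.95), stromal gate (0.75), proliferation gate (0.58), Sox2 gate (0.44) and MacPh gate (0.18). The first 3 exceeded the next in only 6 of 9 libraries at each step, so the place of the gonadotrope gate is loose. The Lac gate was above the Som gate in only 2 of 10 libraries (exact permutation p = 0.0215), and the Sox2 gate was above the MacPh gate in 9 of 9.

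Prlr was above the MacPh level in the Lac gate of 10 of 10 libraries (mean log2 difference 3.21, exact permutation p = 0.00195). The MacPh gate held 20 Prlr UMIs in 932 cells, and in the 4 libraries in which it held 0 the floor of 3 counts corresponded to 0.16 to 0.53 UMIs per 10000. Against the barcodes under 300 UMIs, Prlr was higher in the Lac gate of 6 of 9 libraries by a log2 value of 0.49, which did not pass (exact permutation p = 0.105). The mt/hGRF (2.18 in these barcodes against 1.27 in the Lac gate), virgin (1.10 against 0.97) and WT male 2 (1.67 against 1.58) libraries went the other way. Without the mt/hGRF and virgin libraries, whose barcodes under 300 UMIs carried Pou1f1 near the Lac gate level, Prlr was higher in 6 of 7 (0.76, exact permutation p = 0.0313). A Prlr UMI was seen in 6.44% to 19.0% of Lac gate cells, 12.4% to 27.9% of Som gate cells and 0% to 8.11% of MacPh gate cells. After thinning to 300 UMIs the ranges were 1.18% to 5.61%, 2.68% to 9.13% and 0% to 2.70%.

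Stat5a and Stat5b, which carry the signal of the receptor to the nucleus, were sparse in single gates and libraries, with 100 and 54 UMIs in the Lac gates of all libraries together. Over all kept cells Stat5a lay at 0.26 and 0.09 UMIs per 10000 in the female and male 10X Genomics libraries, 0.53 and 0.25 in WT females 1 and 2, and 0.06 and 0.19 in WT males. It lay at 0.13 in the mt/hGRF, 0.24 in the virgin and 0.17 and 0.12 in the lactating libraries. Among the 8-week WT libraries, each female was above each male of its platform, with only 6 UMIs in WT male 1. The share of all genes that separate in this way was not counted. On 10X Genomics, deep proliferation-marker cells made up different parts of these sums in the female and the male. Stat5b lay between 0.08 and 0.34 in all libraries. Stat5a was above the MacPh level in the Lac gate of 9 of 10 libraries (mean log2 difference 2.29, exact permutation p = 0.00391), whereas Stat5b was above it in 7 of 10 (0.72, exact permutation p = 0.195). The MacPh gates held 2 Stat5a UMIs in all and 0 in 8 libraries, so the size of the Stat5a difference depends on the pseudocount of 0.05. In these 8 the Lac gate level was above the floor of 3 counts (0.14 to 0.61 UMIs per 10000) in 5, and not in WT female 2 and both WT males.

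Cish, the inhibitor whose gene is a classic STAT5 target and whose window with 2 TTCNNNGAA palindromes is given above, was higher in somatotrope-marker than in lactotrope-marker cells. Its Lac gate level was 0.13 and 0.36 UMIs per 10000 in the female and male 10X Genomics libraries, 0.12 and 0.36 in WT females, 1.28 and 0.34 in WT males 1 and 2, 0.07 in the mt/hGRF, 0.51 in the virgin and 0.44 and 0.38 in the lactating libraries. The value of 1.28 rested on 4 UMIs in 21 cells. The Som gate lay at 0.29 and 0.48 in the 10X Genomics libraries, 0.43 and 0.90 in WT females, 0.41 and 1.16 in WT males, 0.40 in the mt/hGRF, 1.00 in the virgin and 0.80 and 0.82 in the lactating libraries. The Som gate was higher in every library except WT male 1. The gonadotrope gate lay between the 2 by its mean (0.53, against 0.67 and 0.40). It was below the Som gate in 8 of 9 libraries and above the Lac gate in 7 of 9. Its values rest on 1 to 9 UMIs per library, so its place is loose.

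Cish was nearly absent from macrophage-marker cells, with 2 UMIs in 932 cells, and the Lac gate was above them in 10 of 10 libraries (mean log2 difference 2.59, exact permutation p = 0.00195). In the 8 libraries with 0 Cish UMIs in the MacPh gate, the floor of 3 counts corresponded to 0.14 to 0.61 UMIs per 10000, and the Lac gate level was above the floor of its own library in 3 of them (the virgin, the male 10X Genomics and the WT male 1 libraries). In the other 5 the difference was not detectable at the depth of the single library. The Lac gate was above the barcodes under 300 UMIs in 5 of 9 libraries (0.23, exact permutation p = 0.641). The exceptions were the female 10X Genomics, WT female 1, mt/hGRF and virgin libraries, and without the last 2 the difference was 0.75 (5 of 7 libraries, exact permutation p = 0.0938), which did not pass either. Cish UMIs were seen in 0.826% to 14.3% of Lac gate cells and 4.33% to 13.1% of Som gate cells, against 0% to 0.901% of MacPh gate cells. After thinning the shares were 0% to 1.55%, 0% to 6.22% and 0%. The Som gate held 15.5% to 63.9% of the Cish UMIs of a library and the Lac gate 1.19% to 26.5%.

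Socs2, an inhibitor best known for restraining growth hormone signalling, followed neither pattern. Its Lac gate level was 1.77 and 1.59 in the female and male 10X Genomics libraries, 1.08 and 0.92 in WT females, 0.64 and 1.03 in WT males, 0.82 in the mt/hGRF, 1.57 in the virgin and 0.93 and 0.67 in the lactating libraries. The Som gate ranged from 0.55 to 1.84 and was above the Lac gate in 5 of 10 libraries. Higher means were found in the stromal (2.18), gonadotrope (2.16) and Sox2 (1.95) gates, and the Sox2 gate was above the Som gate in 8 of 9 libraries. Stromal levels were 3.78 and 6.43 in the 10X Genomics libraries and 0 to 1.86 in the Drop-seq libraries, and the stromal gate was above the gonadotrope gate in only 2 of 7 libraries. Socs2 was above the MacPh level in the Lac gate of 10 of 10 libraries (mean log2 difference 3.68, exact permutation p = 0.00195) and above the barcodes under 300 UMIs in 9 of 9 (0.79, exact permutation p = 0.00391), or in 7 of 7 without the mt/hGRF and virgin libraries (0.92, exact permutation p = 0.0156).

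**Figure D3:**
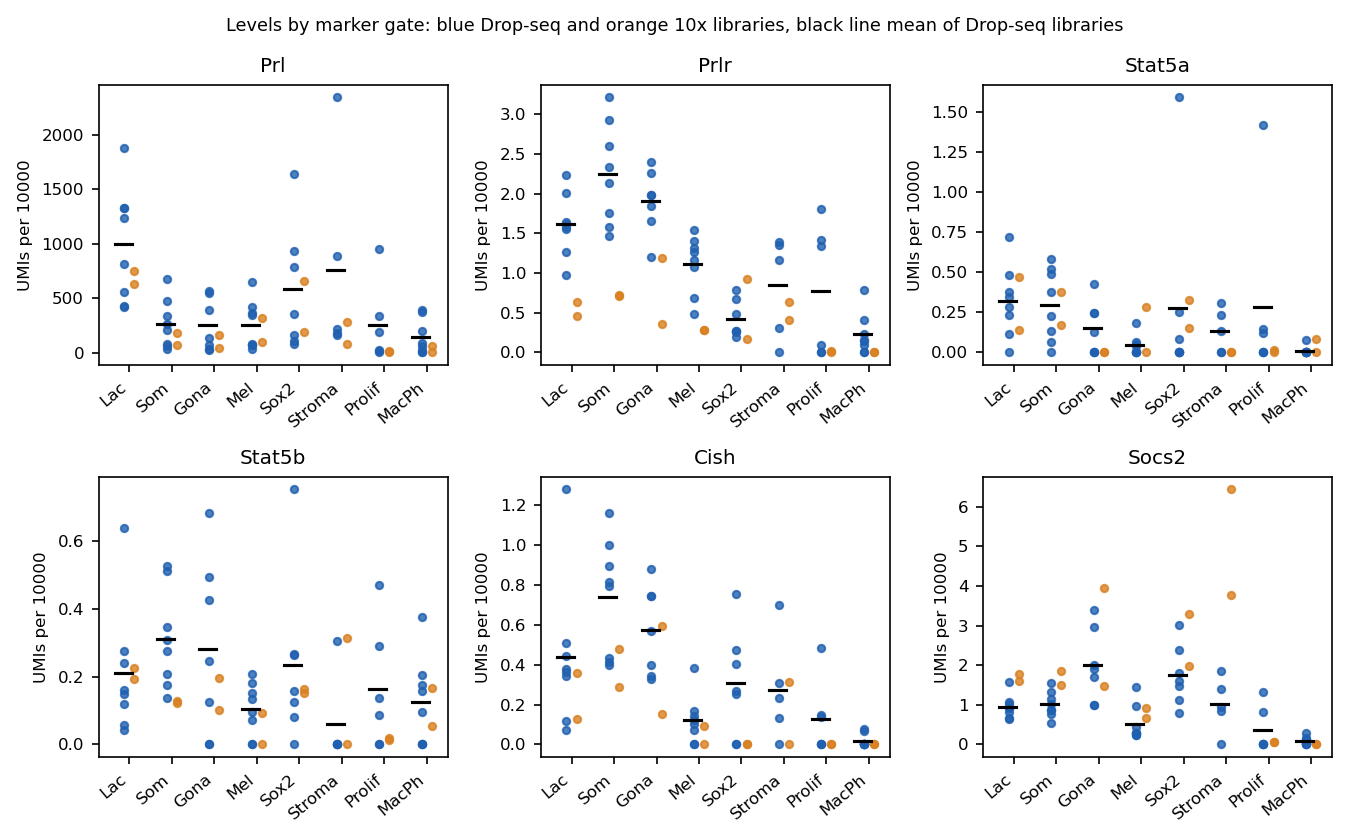
UMIs per 10000 of the 6 genes by gate, 1 point per library with at least 20 cells in the gate (blue Drop-seq, orange 10X Genomics), and a black line at the mean of the Drop-seq libraries. Among Drop-seq libraries, Prlr and Cish have their highest means in the Som gate (2.25 and 0.74) and Socs2 in the gonadotrope gate, while the MacPh gate has the lowest mean of the 8 gates for these 3 genes.

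The direct comparison of the Lac and Som gates within libraries tested these differences against the spread between libraries. In an edgeR quasi-likelihood fit of UMIs summed per library and gate with the library as a block (10 libraries, 3660 genes tested, Benjamini-Hochberg adjustment over all of them), 9.97% of all genes were called, and 3 of the 4 genes of the pathway that passed the low-count filter. Prl was higher in the Lac gate by a log2 value of 2.34 (SE 0.22, adjusted p = 2.06e-07). Part of this difference is built in, since some markers came from clusters that the study assigned partly by Prl and Gh. Prlr was lower there by a log2 difference of -0.55 (SE 0.14, adjusted p = 0.0137) and Cish by -1.04 (SE 0.21, adjusted p = 0.00199). Socs2 did not pass (-0.13, SE 0.12, adjusted p = 0.599), and Stat5a and Stat5b were left out by the filter. The 3 calls held with each library left out in turn, over which Prl ranged from 2.17 to 2.48, Prlr from -0.64 to -0.50 and Cish from -1.14 to -0.94. With the 2 10X Genomics libraries alone none passed, at log2 differences of 2.38, -0.65 and -0.99 for Prl, Prlr and Cish (adjusted p = 0.129, 0.129 and 0.0673), sizes close to those over all libraries, in a fit of only 2 libraries. With at least 3 markers required, WT female 1 and WT male 1 fell under 20 Lac gate cells and left the fit. Prl was then called, Prlr was not (-0.75, adjusted p = 0.0503), and Cish was left out by the low-count filter.

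**Figure D4:**
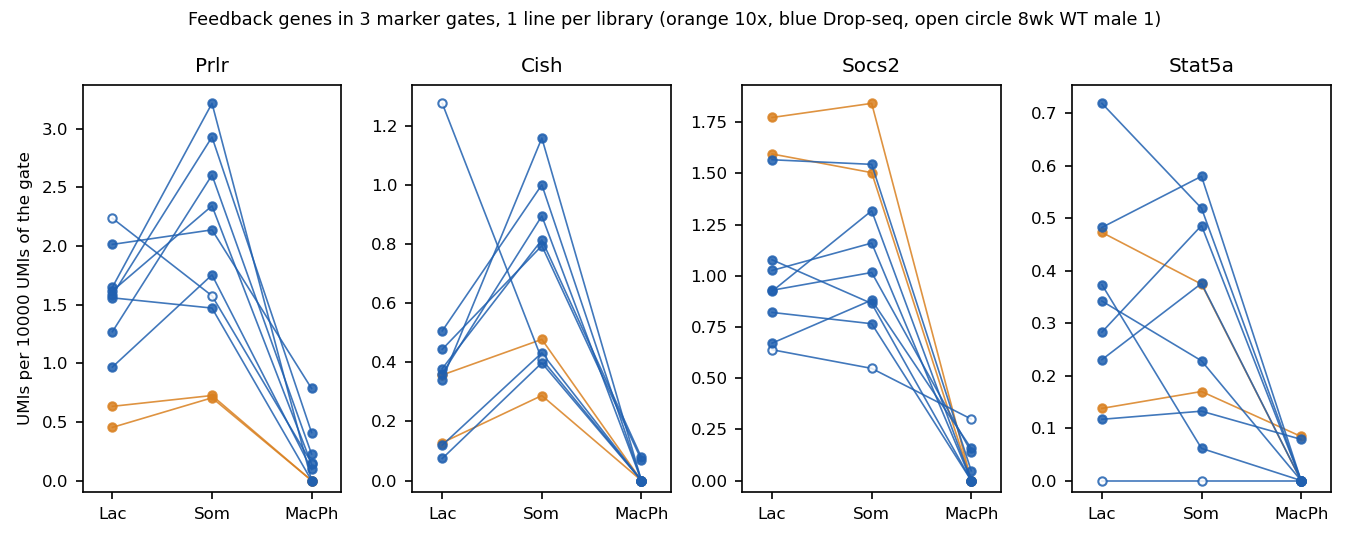
Prlr, Cish, Socs2 and Stat5a as UMIs per 10000 in the Lac, Som and MacPh gates, with a line joining the values of each of the 10 libraries (orange 10X Genomics, blue Drop-seq, open circle WT male 1, whose Lac gate held 21 cells). For Cish the line rises from the Lac to the Som gate in 9 of 10 libraries, and for Socs2 in 5 of 10.

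Other genes of the pathway, and regulators of Prl, were taken from a list of 35, of which 12 entered this comparison. Of these, 4 were called higher and 2 lower in the Lac gate, where 9.97% of all genes were called. Nr4a2, a nuclear receptor induced by hormonal stimuli, was higher by 1.05 (adjusted p = 0.0371), Esr1, the estrogen receptor through which estrogen stimulates Prl, by 0.88 (adjusted p = 0.018), and Ddx5 and Ddx17, RNA helicases that act as transcriptional cofactors, by 0.57 and 0.51 (adjusted p = 0.00422 and 0.00683, edgeR with Benjamini-Hochberg adjustment). Jak1, a kinase of other cytokine receptors, was lower by a log2 difference of -0.68 (adjusted p = 0.0332) and Stat3 by -0.54 (adjusted p = 0.0272). Pou1f1 did not pass (0.37, adjusted p = 0.0615). The calls of Nr4a2, Jak1 and Stat3 were each lost under some alternatives. The paper had already named Nr4a2, Ddx5 and Ddx17 for its lactotrope cluster of these samples, so their calls are not independent of it. Jak2, the kinase bound to the prolactin receptor, Ghr and Drd2 had too few counts to be tested.

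Lactation was compared with the virgin state in 2 libraries against 1, in a fit over the 8 Drop-seq libraries. The spread comes from the groups with 2 libraries, the lactating females and the 8-week WT females and males. For Prl over all kept cells, the widest pair was the WT females, at 727 and 167. Over all kept cells Prl lay at 934 in the virgin library and 1031 and 1279 in the lactating libraries. The lactating values were both higher, but within the spread (log2 0.59, SE 0.91, adjusted p = 1, edgeR). In such sums over all cells, fewer cells of a type and less RNA per cell cannot be told apart. In this comparison 0% of all genes were called, with 307 genes under an unadjusted p of 0.05 and 5 called by DESeq2.

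By gate, the lactating libraries lay below the virgin library in one class and above it in the other. In the Lac gate Prl was lower in both lactating libraries (1328 and 1325) than in the virgin library (1876), a log2 difference of -0.38 (SE 0.53, adjusted p = 0.998), and the difference turned to 0.59 without the 5% of cells with the most UMIs. In the virgin library the 10% of Lac gate cells with the most Prl UMIs held 75.9% of the Prl UMIs of the gate, and the median cell went the other way, at 640.3 UMIs per 10000 in the virgin and 701 and 754 in the lactating libraries. Prl was higher in both in the Som gate (477 and 679.9 against 332), by 0.85 (SE 0.54, adjusted p = 1), and so was the median Som gate cell (287 and 412 against 188). No member passed in either gate, where 0.0419% and 0.0148% of all genes were called. The difference between the gates in the response of Prl to lactation was 1.18 (SE 0.57, unadjusted p = 0.0399, adjusted p = 1), and 0.0369% of all genes were called for it. The MacPh gate of the virgin library lay at 199.5 and those of the lactating libraries at 388 and 377, so the background was itself higher there, and its part in the Som gate values was not tested.

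The feedback genes gave no call with lactation. Prlr in the Lac gate was 0.97 in the virgin library and 1.62 and 2.01 in the lactating ones (log2 1.04, SE 0.56, unadjusted p = 0.0651, adjusted p = 0.998). Prlr in the MacPh gate lay at 0.09 in the virgin library, from 2 UMIs, and at 0.14 and 0.78 in the lactating libraries, from 2 and 10 UMIs, and its part in this difference was not tested. Socs2 in the Lac gate went the other way, at 1.57 against 0.93 and 0.67 (log2 -0.86, SE 0.55, adjusted p = 0.998). Cish differed less, with log2 differences of -0.11 over all kept cells, -0.18 in the Lac gate and -0.27 in the Som gate. Both lactating libraries lay on the same side of the virgin library for Prlr and for Socs2 in the Lac gate, with a single virgin library to compare with. Such agreement is common with 2 libraries against 1, and the share of all genes that show it was not counted.

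The mt/hGRF females were compared with the 2 Drop-seq WT female libraries of the same age. Over all kept cells Prl lay at 338 in the mt/hGRF library, between the 727 and 167 of the WT females (log2 difference -0.28, SE 0.90, adjusted p = 0.944), and leaving out WT female 1 turned the difference to 1.33. Prl in the Lac gate was higher in the mt/hGRF library (1238) than in both WT females (815 and 422), by 1.21 (SE 0.52, unadjusted p = 0.0208), which did not pass the adjustment (adjusted p = 0.447). In the mt/hGRF library the 10% of the 121 Lac gate cells with the most Prl UMIs held 86.1% of the Prl UMIs of the gate, and its median cell, at 278 UMIs per 10000, lay between those of WT females 1 and 2 (396 and 245). Som gate Prl lay at 208 against 266 and 77.1 (log2 0.43, adjusted p = 0.815), and without WT female 2 the difference was -0.27. Of all genes, 0% were called over all kept cells (1933 under an unadjusted p of 0.05, and 198 called by DESeq2), 0.391% in the Lac gate and 0.65% in the Som gate, and no member was among them. The difference between the 2 gates in the response of Prl was -0.57 (adjusted p = 1), and 0.0738% of all genes were called for it.

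Cish and Socs2 gave no call in the mt/hGRF library. Over all kept cells Cish lay at 0.35, against 0.16 and 0.35 in WT females 1 and 2. Cish lay at 0.07 in its Lac gate, from 1 UMI, and at 0.40 in its Som gate, the lowest of the 8 Drop-seq libraries in each. The log2 differences from WT females were -1.63 (SE 1.43) and -0.57 (SE 0.65), neither of which passed (adjusted p = 0.85 and 0.807). Socs2 differed by -0.02 and -0.31 in the 2 gates. Stat5a in the Som gate had a log2 difference of -2.86 (SE 1.19, unadjusted p = 0.0198, adjusted p = 0.316), from 2 UMIs in the mt/hGRF library against 6 and 11 in the WT females.

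Males were compared with females in 2 Drop-seq libraries each. Over all kept cells Prl lay at 727 and 167 in females and 107 and 104 in males. In these sums both females were above both males, and the females differed from each other by more than the lower female differed from the males. The median kept cell overlapped between the sexes, at 339 and 26.1 in females and 33.3 and 13.7 in males. The log2 difference was -2.19 (SE 0.76, unadjusted p = 0.0181, adjusted p = 1), and it was -0.58 without WT female 1. The female and male 10X Genomics libraries, with 1 library each and no test, lay at 340.5 and 100.4. In the male, 62 proliferation-marker cells held 1408557 of the 5080590 UMIs, with Prl at 4.31. In the female, 34 such cells held 545906 of the 3920089 UMIs, with Prl at 16.2, so these sums weigh such cells unequally. Of all genes, 0.0163% were called over all kept cells.

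In the Lac gate, the summed levels of the sexes overlapped (815 and 422 in females, 559 and 428 in males, log2 difference -0.52, SE 0.44, adjusted p = 1.00), without WT female 1 the difference was 0.10, and 0.279% of all genes were called. The median Lac gate cell held Prl at 396 and 245 UMIs per 10000 in females and 167 and 96.4 in males, and at 216 and 125 in the female and male 10X Genomics libraries. No test was run for these medians, and the share of all genes that separate in this way was not counted. In the Som gate, Prl lay at 266 and 77.1 in females and 61.0 and 30.2 in males, a log2 difference of -1.85 (SE 0.44, unadjusted p = 9.94e-05) that missed the threshold (adjusted p = 0.0558), with 0.148% of all genes called. The median Som gate cell overlapped between the sexes, at 153 and 20.2 in females and 28.2 and 9.71 in males. The summed difference had the smallest adjusted p of any member in the 9 comparisons between groups. It passed in 7 of 15 alternatives, over which the adjusted p ran from 2.76e-11 to 1. Without WT male 1 the difference was -2.64 (adjusted p = 1.57e-06), and without WT female 1 it was -0.53 (adjusted p = 0.999). In 10X Genomics the Som gate lay at 183 in the female and 69.0 in the male. The difference between the gates in the sex effect on Prl was -1.23 (SE 0.48, unadjusted p = 0.00979, adjusted p = 1), with 0.0984% of all genes called. The MacPh gate also differed between libraries, at 91.3 and 2.81 in females and 26.9 and 3.88 in males, and the part of this background was not tested.

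Among the other members, Stat5a was lower in males over all kept cells by a log2 difference of -1.64 (SE 0.56, unadjusted p = 0.0175, adjusted p = 1) and in the Som gate by -1.75 (unadjusted p = 0.0369, adjusted p = 1), neither past the threshold. Cish over all kept cells was at 0.16 and 0.35 in females and 0.35 and 0.64 in males (log2 0.91, SE 0.41, unadjusted p = 0.0549, adjusted p = 1). Prlr differed by 0.14, 0.02 and 0.01 over all kept cells and the Lac and Som gates. In all, 0 of the 54 member values in the 9 comparisons passed an adjusted p of 0.05 by edgeR, and 6 had an unadjusted p below 0.05, 4 of them in the comparison of the sexes. Of all genes, 361 of 18359 over all kept cells, 269 of 7163 in the Lac gate and 216 of 6770 in the Som gate were under the same unadjusted threshold between the sexes, and for mt/hGRF 1933, 583 and 773.

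**Figure D5:**
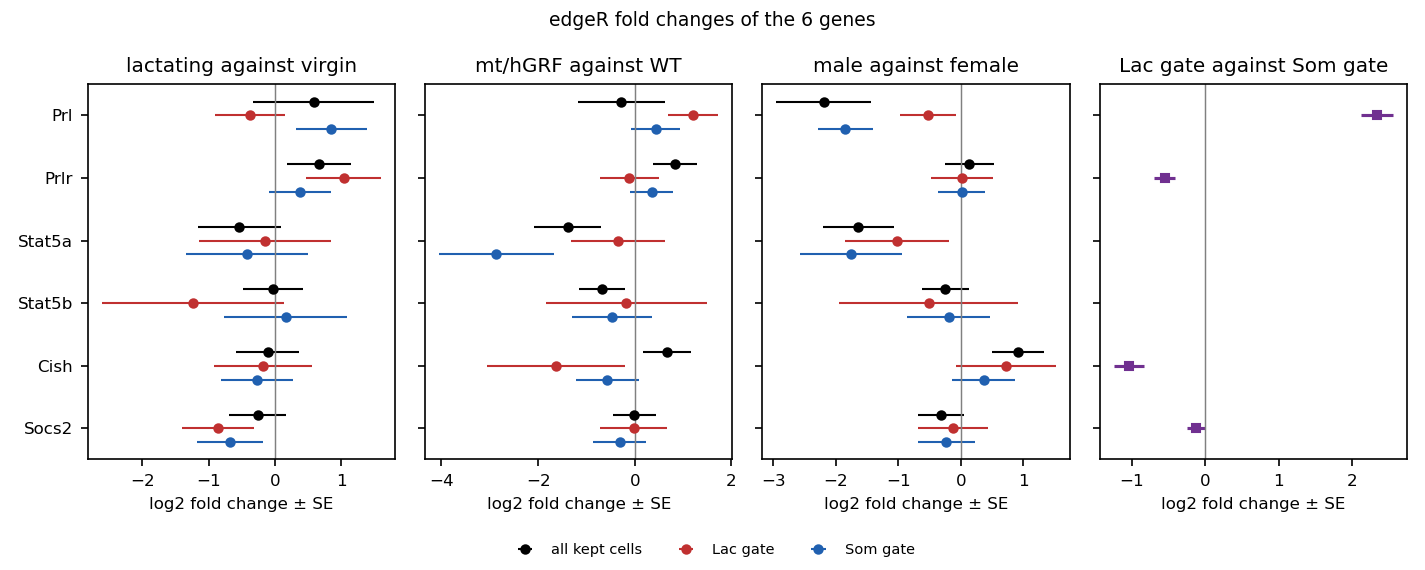
Log2 fold changes from edgeR, with bars of 1 SE, of the 6 genes in the comparisons of lactating with virgin, mt/hGRF with WT, and male with female libraries, over all kept cells (black) and in the Lac (red) and Som (blue) gates, and of the 4 genes tested between the Lac and Som gates. The Prl values between groups range from -2.19 (male against female, all kept cells) to 1.21 (mt/hGRF against WT, Lac gate), and none of the values between groups passed the adjusted threshold.

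The 35 pathway genes gave 222 values in the same 9 comparisons, of which 0 passed the adjustment by edgeR (smallest adjusted p = 0.19) and 15 had an unadjusted p below 0.05. Drd2, the dopamine receptor that holds Prl secretion down, had a log2 difference of -1.94 in mt/hGRF over all kept cells (unadjusted p = 0.00323, adjusted p = 0.301). Esr1 ranged from -0.94 to 0.20, Pou1f1 from -0.48 to 0.37, Jak2 from -1.51 to 1.80 and Ghr, in the 3 comparisons in which it had enough counts, from -0.91 to 0.10. Nr4a2, chosen after its values were seen, had log2 differences of 2.86 in the Lac gate and 3.99 in the Som gate with lactation (adjusted p = 0.416 and 1).

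Whether cells with more Prl carry more of the feedback genes was asked within the Lac gate, by dividing the cells of each library into tertiles by their Prl level. Prl, Gh and Pomc were left out of the denominator, so that the hormone itself did not lower the others. The upper tertile had 6.09 to 47.7 times the Prl level of the lower one in the 9 libraries with at least 60 such cells. The mean level of Prlr was 1.38 in the lower and 1.96 in the upper tertile, higher in 6 of 9 libraries (exact permutation p = 0.395). Cish went from 0.45 to 0.30, lower in 6 of 9 (exact p = 0.227), and Socs2 from 1.62 to 1.11, lower in 7 of 9 (exact p = 0.0898). Stat5a differed by 0.16 (exact p = 0.113) and Stat5b by -0.01 (exact p = 0.906). None of the 5 genes passed, so within lactotrope-marker cells no relation to Prl was detectable at this depth.

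Over all kept cells the same division mixes cell types, and there the upper tertile was higher in Prlr in 10 of 10 libraries (by 0.51, exact permutation p = 0.00195), in Stat5a in 10 of 10 (by 0.15, exact p = 0.00195) and in Socs2 in 9 of 10 (by 0.40, exact p = 0.00391). Cish did not follow (0.00, higher in 5 of 10, exact p = 0.957), nor did Stat5b (0.12, exact p = 0.121). None of the 5 passed in the Som gate, with exact p from 0.438 to 0.785. A total of 25 such tests were computed.

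The genes most like Prl, Prlr and Socs2 over the 58 combinations of Drop-seq library and class were ranked among 3579 genes by Spearman correlation of their levels, as a description, since combinations share libraries and depth. Closest to Prl were Chgb (0.93), a secretory granule protein, Crhbp (0.80), which binds corticotropin-releasing hormone, and Olfm1 (0.72). Closest to Prlr were Ahi1 (0.84), Arfgef3 (0.82) and Ttc14 (0.82), and those close to Socs2 included Ly6h (0.73) and Ptprd (0.71). Cish was too low on average to be ranked, and no ranking was made for Stat5a and Stat5b.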

How the data were processed

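The deposited tables hold raw counts of UMIs per gene symbol and barcode, made by the authors from Drop-seq reads aligned to mm10 and from 10X Genomics reads through Cell Ranger, without normalization. The 6 genes, the markers and the pathway list were chosen with earlier results of these data known. Barcodes were kept as cells with 100 to 4000 genes and a minimum of 300 UMIs in Drop-seq, with 200 to 3000 genes on the 10X Genomics platform, and with a mitochondrial share below 0.1 on both. This kept 978 to 5256 cells and 960289 to 5080590 UMIs per library, with medians of 534 to 1246 UMIs per cell. No doublet was removed. Leaving out the 5% of cells with the most UMIs was an alternative.

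UMIs were summed per library and class (at least 20 cells) and tested with edgeR 4.0.16 (TMM, filterByExpr, two-sided, Benjamini-Hochberg). Standard errors are the log2 fold change divided by the square root of F. Other alternatives were DESeq2 1.42.0, RLE size factors, no low-count filter, hormones left out of library sizes, at least 500 UMIs, gates of 1 or 3 markers, cells without many ribosomal pseudogene UMIs, added 10X Genomics libraries, a replicate block, and each library left out. Levels were compared over libraries by exact sign-flip permutation tests. The differences between gates and the comparisons with barcodes under 300 UMIs (in all libraries, and without those in which their Pou1f1 level was near that of the Lac gate) and among Prl-rich cells were added after the data were seen. Thinning used 300 UMIs per cell (seed 7), and floors of 3 counts cover counting error only. Nothing in the labels says that libraries of a group came from separate preparations, so p-values measure the spread between these libraries.

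Genes named are the 6 members, the pathway genes past the threshold (the 5 largest by size, and Ddx17, named after its values were seen) with Jak2, Ghr, Esr1, Drd2 and Pou1f1, and the 3 genes most like a member, of which 1 is not reported here. The edgeR fits were tested on simulated data. Reads were not used here.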

Additional observations from a re-analysis of the deposited data

Results flagged for a closer look

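The difference between the Som and Lac gates in the response of Prl to lactation was 1.18 on the log2 scale (edgeR with a library block, unadjusted p = 0.0399, adjusted p = 1). Both lactating libraries lay below the single virgin library in the Lac gate and above it in the Som gate. The Lac gate direction was not stable. It turned to 0.59 without the 5% of cells with the most UMIs, and the median Lac gate cell held more Prl in the lactating libraries (701 and 754 UMIs per 10000) than in the virgin library (640.3). Prl in the macrophage-marker gate was also higher in both lactating libraries (388 and 377 against 199.5 UMIs per 10000), and the part of this background in the difference was not tested.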

How the results depend on the processing

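Of the comparisons between groups in which no member was called, 3 gained 1 called member under an alternative. Prl was called, as the 1 member, between the sexes over all kept cells with no low-count filter. For mt/hGRF against WT the call came in the Lac gate with at least 3 markers. There WT female 1 held 16 cells and was left out, so that call set 1 library against WT female 2 alone. In the Som gate between the sexes, 1 member was called with RLE size factors, with no low-count filter, without the 5% of cells with the most UMIs, without cells rich in ribosomal pseudogene UMIs, with 1 marker, and with libraries left out in turn (0 to 1). The labels give the same 2 numbers to both sexes, and the differences of replicate 1 from replicate 2 correlated between females and males by 0.198 over all kept cells, 0.166 in the Lac gate and 0.268 in the Som gate, but with only 2 numbers they were not read as pairs. With a replicate block over these 4 libraries 1 member was called in the Som gate (Prl, -1.68), and none in the other scopes, where Prl stood at -1.76 over all kept cells and -0.36 in the Lac gate, with Stat5a at -1.54 over all kept cells. Between the Lac and Som gates, 0 members were called with the 10X Genomics libraries only and 1 with at least 3 markers, where Cish was not tested.

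The log2 difference of Prl changed sign for mt/hGRF over all kept cells (-1.03 to 1.33 with each WT female left out, the latter without WT female 1) and in the Som gate (-0.27 to 1.75 with each WT female left out, the former without WT female 2, and -1.26 without the deepest 5% of cells), for lactation in the Lac gate (0.59 without the deepest 5%), and between the sexes in the Lac gate (-0.96 to 0.10 with each WT female left out, the latter without WT female 1, and 0.0429 with 3 markers). The value of 0.0429 with 3 markers compares only WT male 2 with WT female 2. WT female 1 and WT male 1 had under 20 Lac gate cells there. The cause of these changes of sign was not tested. Between groups, 42 values of the other members (some Stat5a comparisons not counted) gave 456 values under alternatives. Of these, 55 changed sign and 0 were called. Against barcodes under 300 UMIs in place of macrophage-marker cells, Prlr (0.49) and Cish (0.23) no longer passed. Without the mt/hGRF and virgin libraries, where those barcodes carried Pou1f1 near the Lac gate level, Prl (0.73) and Cish (0.75) did not pass and Prlr (0.76) did. The share of cells thinned to 300 UMIs turned Stat5b to -0.15 percentage points. By Prl level, over all kept cells Prlr (0.51) and Stat5a (0.15) passed, Socs2 (0.40) changed sign and passed, and Stat5b (0.12) changed sign. In the Som gate, Prlr (-0.31), Cish (0.0748), Socs2 (0.16) and Stat5b (0.0339) changed sign, and so did Stat5b after thinning (0.00804).

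Calls over all genes moved from 0 to between 0 and 861 for mt/hGRF and from 3 to between 0 and 91 between the sexes, both over all kept cells, and from 365 to between 109 and 1041 between the Lac and Som gates. WT male 1 left the Lac gate fits where under 20 cells remained. The sparse Stat5a, Stat5b and Cish counts limit what could be seen by gate.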

Other observations

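Genes of the prolactin family other than Prl, which the placenta and decidua are known to make, were counted by symbol (Prl followed by a digit). The 10X Genomics tables list 25 of them, with 0 UMIs in the female and 1 in the male. The Drop-seq tables list 8 to 16, with 18 to 325 UMIs per library, and Prl2b1 led in 5 of the 8 libraries, with 39 UMIs in the mt/hGRF, 85 in the virgin and 111 and 161 in the lactating libraries. WT female 1 held 216 of these UMIs, led by Prl4a1 with 69. Per 10000 UMIs the family lay at 0.26 in the mt/hGRF, 0.55 in the virgin and 0.91 and 0.65 in the lactating libraries. It was highest in WT female 1, at 2.25.

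The gate of T and NK cell markers reached 20 cells in the mt/hGRF library alone, where Cish lay at 3.07 UMIs per 10000, from 9 UMIs in 27 cells, above every Lac and Som gate value. Cish is known as an inhibitor of cytokine signalling in lymphocytes.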
